A study of Mus musculus with 4 samples.

Results

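Cathepsins are the proteases of the lysosome, and 9 of their genes (Ctsa, Ctsb, Ctsc, Ctsd, Ctsh, Ctsk, Ctsl, Ctss and Ctsz) were followed here across the cell classes of the mouse brain after transient occlusion of the middle cerebral artery (tMCAO). The genes were matched by symbol and are 9 of the 31053 genes in the libraries. They were chosen by their levels in earlier analyses of these same libraries, so the levels below describe them and test nothing. The cells came from 8-week-old male C57/BL6 mice in 4 libraries of 10x Genomics 3′ RNA, namely 1 library each from sham surgery (taken on day 7) and from days 1, 3 and 7 after tMCAO. In tMCAO a filament blocks the right middle cerebral artery for a time and is then withdrawn, and the whole hemisphere on the operated side was taken. The tissue was digested with papain, the plant protease that gives its name to the family of the cysteine cathepsins, and was cleared on Percoll in all 4 groups alike. How many mice went into a library is not given in the sources used here, and with 1 library per group no difference between groups could be tested.

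Cathepsins reach the lysosome as inactive precursors, are cut to their active form in its acid interior and there digest proteins taken up by endocytosis, phagocytosis or autophagy. Cathepsin D is an aspartic endoprotease, cathepsins B, L, S and K are cysteine endoproteases that cut inside a chain (cathepsin B also trims its end), and cathepsins C, H, Z and A work mainly from the ends of a chain. Cathepsin S stays active at neutral pH and cuts the invariant chain of MHC class II in antigen-presenting cells, and cathepsin K is best known for digesting collagen. In the brain, microglia (the resident macrophages of the parenchyma) and the border macrophages of the meninges, choroid plexus and perivascular spaces are rich in lysosomes.

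There were 11744 cells in the sham library, 17780 on day 1, 11983 on day 3 and 17922 on day 7, with 69392755 to 104023002 unique molecular identifiers (UMIs, 1 per captured RNA molecule), and 44360 of 59429 cells passed the limits on genes and mitochondrial UMIs. Clustering without any cathepsin gene among the variable genes gave 34 clusters and 16 named classes, each called "-like" because the names rest on marker genes. The microglia-like class held 1656 cells (160 in sham, 663 on day 1, 427 on day 3 and 406 on day 7), and all of its 7 defining markers, Tmem119, P2ry12 and Sall1 among them, were detected in every library. The border macrophage-like class held 363 cells (65, 138, 64 and 96 in the same order), with all of its 7 markers, such as Mrc1, Pf4 and Cd163, detected in every library. With each cell called on its own from the markers, 205 of these 363 cells were border macrophage-like and 64 monocyte-like, so the class is mixed. Between 33 and 88 cell barcodes were shared by each pair of libraries, at most 0.562% of the smaller library. Levels are given as counts per 1000000 (CPM), the UMIs of a gene per 1000000 UMIs summed over the cells of a class in a library. Since 1 tag is counted per molecule, whatever the length of the transcript, levels of different genes are set side by side without a length correction. Intervals are exact 95% intervals that cover counting error only, not differences between animals. A class was reported in a library where it held at least 50 cells.

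The genes lie on 6 chromosomes of GRCm38, and Ctsk (chr3:95499256-95509362, plus strand) and Ctss (chr3:95526786-95556403, plus strand) are neighbours in tandem. Ctsd lies at chr7:142375911-142388038 on the minus strand and Ctsb at chr14:63122462-63145923 on the plus strand. Ctsl lies at chr13:64359337-64370890 on the minus strand and Ctsc at chr7:88278085-88310888 on the plus strand. Ctsa lies at chr2:164832873-164841032 on the plus strand, Ctsz at chr2:174427493-174439039 on the minus strand and Ctsh at chr9:90054152-90076089 on the plus strand. Ctsd overlaps an annotated gene of its own strand, Gm49369, which had 0 UMIs in all cells. The other members that overlap a gene of the files do so on the opposite strand, Ctsa with Neurl2 and Pltp, Ctsb with Fdft1, Ctsc with Gm26522, Ctsl with Gm47123 and Ctsz with Nelfcd.

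Several members were higher together in microglia-like cells after tMCAO. The 250 bases before each RefSeq start (build GRCm38.p6) were searched on both strands for 4 motifs of factors known in lysosome or macrophage biology. Of the 9 genes 7 had such a window, and Ctsb and Ctsh had none. TCACGTGA, the core of the element bound by the lysosomal regulators of the MiT/TFE family, stood before Ctsa and Ctsd and in 0.785% of all 32851 windows, and the E-box CACGTG that it contains stood before Ctsa, Ctsd and Ctsl and in 6.02%. GAGGAAGT, a motif of the macrophage factor PU.1, stood before Ctsc only among the members and in 2.44% of windows. GAAANNGAA, a motif of interferon regulatory factors, stood before Ctss only among the members and in 7.13%. A match is a description of these letters and was not tied to binding or to the levels. The matches, in capitals, with their flanks read 5′ to 3′ as follows, where the Ctsc line holds the motif as its reverse complement.
Ctsd, chr7:142387909-142387936, minus strand, 99 bases before a RefSeq start inside the gene span given above: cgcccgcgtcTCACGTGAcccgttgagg
Ctsd, chr7:142388057-142388077, minus strand, 245 bases before the same start: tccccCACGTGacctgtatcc
Ctsa, chr2:164833750-164833772, plus strand, 13 bases before a RefSeq start inside its gene span: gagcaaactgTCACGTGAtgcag
Ctsl, chr13:64370741-64370766, minus strand, 236 bases before a RefSeq start inside its gene span: cgttagaagcCACGTGctgatctaaa
Ctsc, chr7:88277924-88277951, plus strand, 151 bases before the start: tcactaactaACTTCCTCaggccacctc
Ctss, chr3:95526755-95526783, plus strand, 21 bases before the start: gtctttaaatGAAACCGAAatgaaagttc

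Microglia-like cells had the highest summed level of the 9 genes in every library and border macrophage-like cells the next. The sum in microglia-like cells was 14403 CPM in sham, 21239 on day 1, 33994 on day 3 and 20131 on day 7. In border macrophage-like cells it was 9505, 15013, 10574 and 9840.5 CPM. No other class passed 3517 CPM, reached by neutrophil-like cells on day 1, and the intervals of the first, the second and the next class overlapped in no library. Microglia-like cells were 2.12, 4.96, 4.55 and 2.89% of the cells in sham and on days 1, 3 and 7 and held 15.3, 43.5, 50.5 and 32% of all cathepsin UMIs. Endothelial-like cells, the most frequent class, held 45.8, 18.3, 23.2 and 33.1%. These shares leave out 4600 kept cells that stayed unnamed, 885 in sham and 1002, 912 and 1801 on days 1, 3 and 7. With each cell called on its own, 4535 of the unnamed cells were endothelial-like, so the endothelial-like shares would be higher with them. The share of cells in a class follows cell recovery as well as the tissue, and both enter these shares.

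**Figure D1:**
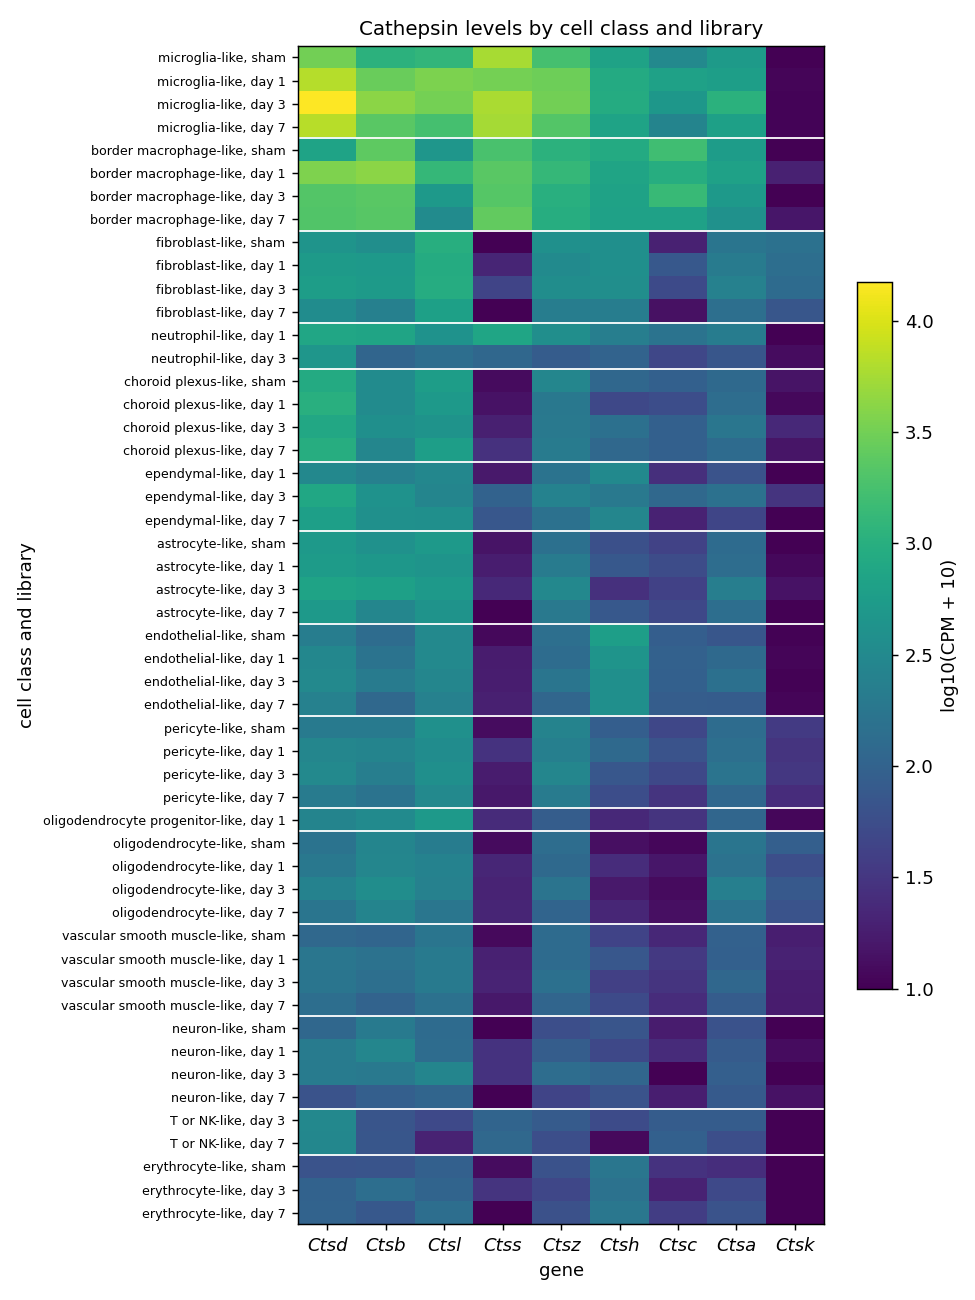
Level of each of the 9 cathepsin genes (columns) in each cell class and library of at least 50 cells (rows), coloured by the log10 of the level in CPM with 10 CPM added. Ctss is highest in microglia-like cells (5712 CPM in sham) and next in border macrophage-like cells (1806 CPM), while Ctsk peaks in fibroblast-like and oligodendrocyte-like cells.

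The genes differed in how far they marked these macrophage classes. Ctss was the most restricted: in sham it stood at 5712 CPM in microglia-like and 1806 CPM in border macrophage-like cells. No other class reported there passed 4.58 CPM, the level of astrocyte-like cells on 1 UMI. Neutrophil-like cells, too few to be reported in sham, held 731 CPM on day 1 and 104 CPM on day 3. T or NK-like and ependymal-like cells, also too few in sham, reached at most 108 and 90.5 CPM in other libraries. Of all Ctss UMIs, microglia-like cells held 80.7, 76.7, 88.4 and 78.3% in sham and on days 1, 3 and 7. Ctsd was highest in microglia-like cells in every library, followed in sham by choroid plexus-like cells at 857 CPM and border macrophage-like cells at 684 CPM, whose intervals overlapped, and on the other days by border macrophage-like cells. Ctsc was highest in border macrophage-like cells in every library. Ctsb was higher in border macrophage-like than in microglia-like cells in sham and on day 1, lower on day 3, and on day 7 the classes could not be separated at 2265 and 2260.1 CPM. Ctsz and Ctsl were highest in microglia-like cells throughout, and for Ctsa the macrophage classes overlapped in sham and on day 1 and microglia-like cells led on days 3 and 7.

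In microglia-like cells the aspartic protease gene Ctsd gave the largest part of the difference from sham on every day. It stood at 3172 CPM in sham, 6546 on day 1, 14979 on day 3 and 6826 on day 7. The level was lowest in sham and highest on day 3, and no intervals of sham and a tMCAO library overlapped. The ratio to sham was 2.06 (95% interval 1.96 to 2.17), 4.72 (4.49 to 4.97) and 2.15 (2.04 to 2.27) in the order of the days. The ratio fell below 2 on day 1 and day 7 when every cell weighed the same, to 1.82 and 1.78.

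The cysteine endoprotease genes took different courses. Ctsb stood at 1089.5, 2783, 4155 and 2265 CPM in sham and on days 1, 3 and 7, at 2.55 (2.34 to 2.79), 3.81 (3.49 to 4.17) and 2.08 (1.90 to 2.28) times sham. Ctsl stood at 1219.8, 3535, 3282 and 1734 CPM, at 2.90 (2.67 to 3.15), 2.69 (2.47 to 2.93) and 1.42 (1.30 to 1.56) times sham. Ctsb thus peaked with Ctsd on day 3, whereas Ctsl in the class as a whole was highest on day 1 and nearer to sham on day 7. In the shallower cluster of the class, described below, Ctsl was highest on day 3 instead, at 2714 against 2245 CPM on day 1. Ctss, the most abundant member in sham, stood at 5712, 3275, 5979 and 5639 CPM. It was lower than sham on day 1 at 0.573 (0.549 to 0.598) times and close to sham on day 3 at 1.05 (1.00 to 1.09) and on day 7 at 0.987 (0.945 to 1.03). The summed level of the 7 microglia markers, homeostatic genes such as P2ry12 and Tmem119, was also lowest on day 1, at 7944, 3899, 6410 and 6177 CPM, and its part in the Ctss level was not tested. Olfml3 was lowest on day 7 instead, at 514 CPM against 984 CPM on day 1, and each other marker of the list on day 1. Cx3cr1 stood at 2664 CPM on day 7, above its 1745 CPM in sham. In these cells the border macrophage markers summed to 77.0, 174, 25.3 and 61.6 CPM and the monocyte markers to 13.8, 11.1, 49.2 and 21.4 CPM. The neutrophil markers summed to 3.95, 5.17, 78.0 and 8.56 CPM and the endothelial markers to 3038, 2107, 2661 and 3545 CPM. With each cell called on its own, 1035 of the 1656 cells were microglia-like and 300 endothelial-like. The part of such RNA in the cathepsin levels was not tested.

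Among the genes of the exopeptidases, Ctsz and Ctsc were higher on days 1 and 3 and Ctsh moved less. Ctsz, a carboxypeptidase, stood at 1711, 2999, 3183 and 2080.5 CPM, with ratios to sham of 1.75 (1.63 to 1.88), 1.86 (1.73 to 2) and 1.22 (1.12 to 1.32). Ctsc, the dipeptidyl peptidase that activates serine proteases of granules, stood at 304, 648, 468 and 261 CPM, with ratios of 2.13 (1.81 to 2.53), 1.54 (1.29 to 1.85) and 0.859 (0.705 to 1.05). Ctsc was thus highest on day 1, as Ctsl was in the class as a whole, and its interval on day 7 held a ratio of 1. The sum of the border macrophage markers given above for these cells was also highest on day 1, at 174 CPM against 8228 CPM in border macrophage-like cells. Mrc1, Pf4, F13a1 and Cbr2 were highest on day 1, and Cd163 and Ms4a7 on day 7, as was Lyve1 on 1 UMI. The part of such RNA in the Ctsc level was not tested. Ctsh, an aminopeptidase, stood at 665, 852, 878 and 688 CPM, with ratios of 1.28, 1.32 and 1.03. Ctsa, a serine carboxypeptidase that also holds the sialidase Neu1 and the galactosidase Glb1 in a stable complex, stood at 529, 599, 1068 and 636 CPM. Its ratio of 2.02 (1.77 to 2.31) on day 3 was at the threshold and fell below 2 in 5 of 11 other settings, down to 1.74. Ctsk had 0, 3, 1 and 1 UMIs in these cells, and the exact interval of the 0 in sham reaches 7.28 CPM.

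**Figure D2:**
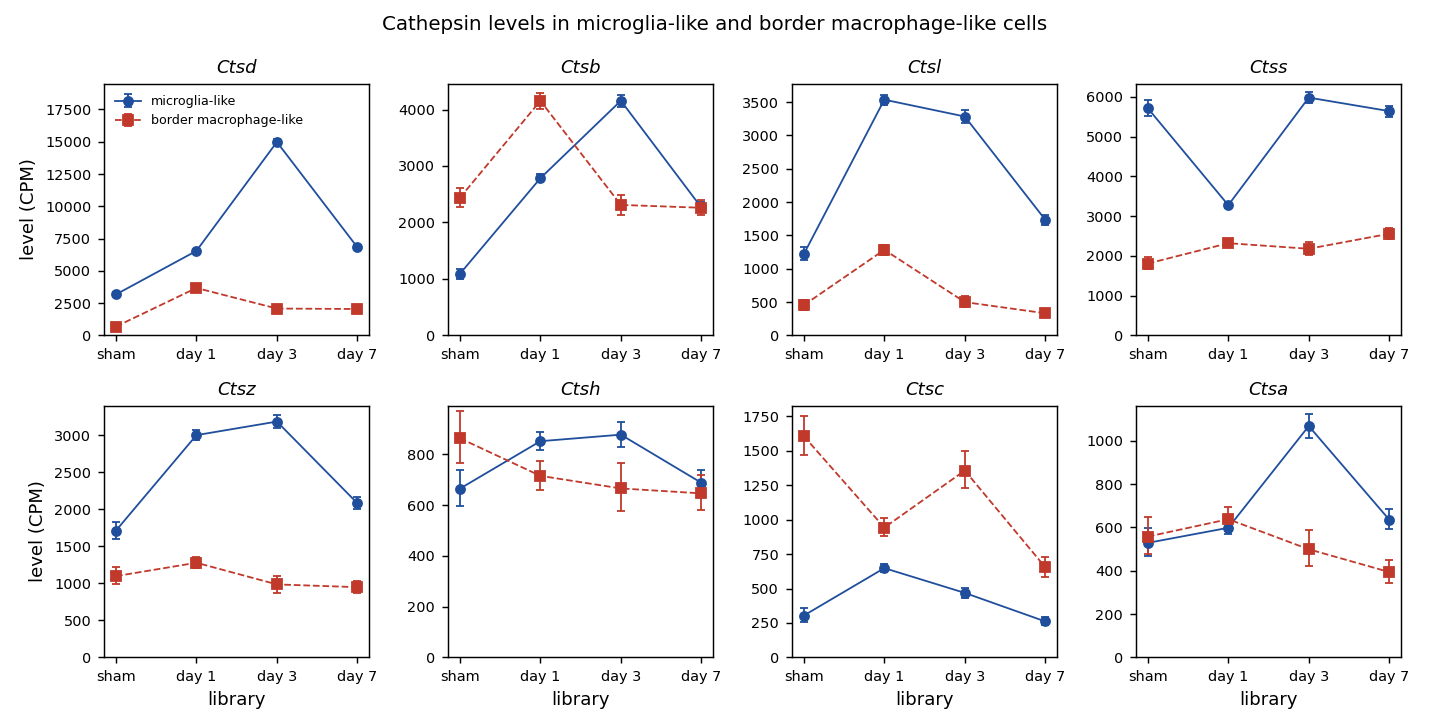
Level of the cathepsin genes other than Ctsk, 1 panel each, in microglia-like (circles) and border macrophage-like cells (squares) in sham and on days 1, 3 and 7, in CPM, with bars for exact 95% Poisson intervals for counting error, 1 library per group. Ctsd in microglia-like cells runs from 3172 CPM in sham to 14979 CPM on day 3, while Ctss dips to 3275 CPM on day 1.

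Of the 9 genes, 8 reached 50 CPM in sham or the tMCAO library. At 2-fold or more, 4 of these were higher than sham on day 1 (Ctsb, Ctsc, Ctsd and Ctsl), against 12.2% of all genes past that level. On day 3 there were 4 (Ctsa, Ctsb, Ctsd and Ctsl), against 4.16%, and on day 7 there were 2 (Ctsb and Ctsd), against 4.44%. None of the 9 was lower by 2-fold, against 14.4%, 4% and 2.31% of all genes. The median log2 ratio of these 8, with 10 CPM added to both levels, was 0.92, 0.95 and 0.27 on days 1, 3 and 7, and that of all genes −0.08, 0.01 and 0.06. These are descriptions, since the genes were chosen with their levels known. The sum over the 9 genes was 1.47 (1.44 to 1.51), 2.36 (2.30 to 2.42) and 1.40 (1.36 to 1.44) times sham. With every cell weighing the same, 2 genes on day 1, 3 on day 3 and 0 on day 7 were at 2-fold, against 13.3%, 6.01% and 7.93% of all genes under that weighting.

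The make-up of the cathepsin RNA in microglia-like cells changed along with its amount. Ctss was 39.7% of the summed cathepsin UMIs in sham, 15.4% on day 1, 17.6% on day 3 and 28.0% on day 7. Ctsd was 22.0, 30.8, 44.1 and 33.9%. Sham microglia-like cells thus held more Ctss than Ctsd, and in all 3 tMCAO libraries Ctsd was the larger. The share of Ctsl was highest on day 1, at 8.47, 16.6, 9.66 and 8.61%.

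Per cell, cathepsin UMIs were spread more widely after tMCAO than in sham. With each cell thinned to 1000 UMIs, and cells below that depth dropped, which kept 118, 520, 300 and 290 microglia-like cells, the median cell held 13, 17, 25 and 16 cathepsin UMIs in sham and on days 1, 3 and 7. The lowest 10% of cells held at most 3.7, 5, 8 and 4 and the highest 10% at least 21.3, 36, 65.1 and 36.1. The upper end thus moved further from sham than the lower end. The 10% of microglia-like cells richest in Ctsd, with no thinning, held 29.7% of the Ctsd UMIs in sham and 45.0, 53.0 and 47.9% on days 1, 3 and 7. Ctsd was seen in 89.0, 91.9, 96.7 and 90% of the thinned cells, so most cells held it in every library. Ctsb was seen in 56.8, 76.3, 80.3 and 67.9% and Ctsl in 55.1, 81.7, 82.7 and 61.4%. Ctss was seen in 89.0, 82.3, 93.7 and 87.2% of microglia-like cells and in 0.11, 0.645, 0.987 and 0.703% of endothelial-like cells, a class not known to express it. Median depth before thinning was 1798.5, 2611, 2252 and 1983 UMIs in microglia-like and 3575, 2149, 2538.5 and 2404 in endothelial-like cells.

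**Figure D3:**
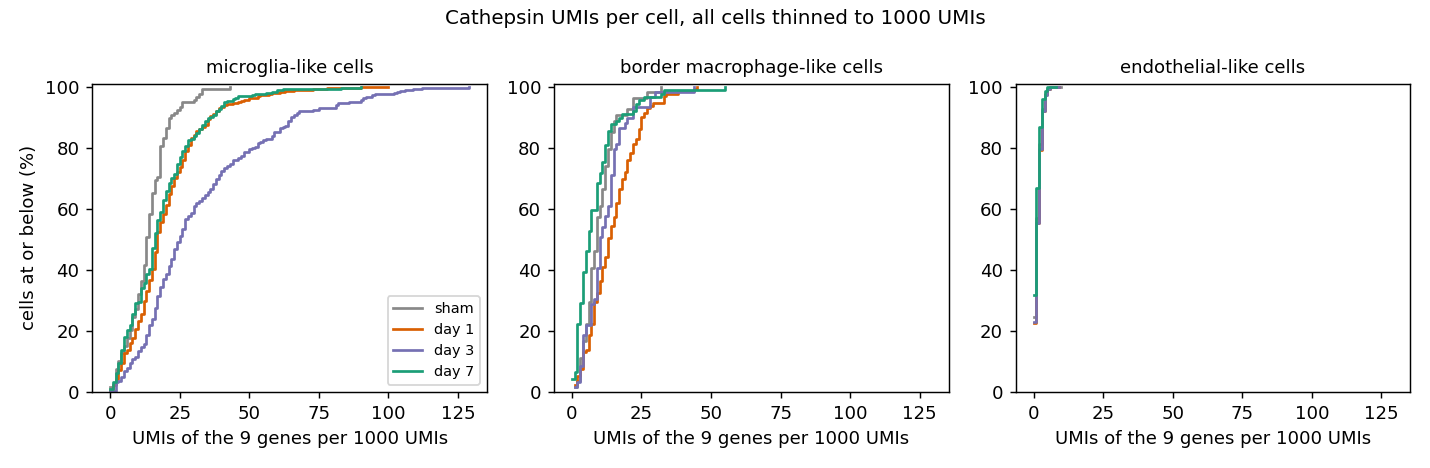
Percentage of cells (vertical axis) with at most a given number of summed UMIs of the 9 cathepsin genes (horizontal axis), each cell thinned to 1000 UMIs, in microglia-like, border macrophage-like and endothelial-like cells, with a line per library. The median microglia-like cell holds 13 cathepsin UMIs in sham and 25 on day 3, with 10% of cells at or past 65.1 on day 3, while the median endothelial-like cell holds 1 in every library.

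The microglia-like class was made of a deeper and a shallower cluster. The deeper cluster held 95, 320, 257 and 243 cells and the shallower 65, 343, 170 and 163. Ctsd stood at 3435, 7036, 14937 and 7511 CPM in the deeper cluster and at 2019, 5156, 15152 and 3739 CPM in the shallower. Ctss stood at 6142, 3784, 6405 and 6011 CPM in the deeper and at 3826, 1832, 4211 and 3961 CPM in the shallower. Ctsl stood at 1323, 3990, 3419 and 1844 CPM in the deeper and at 765, 2245, 2714 and 1235 CPM in the shallower. Its highest level was thus on day 1 in the deeper and on day 3 in the shallower cluster, with the intervals of these days apart in each. In both clusters Ctsd was lowest in sham and highest on day 3, and Ctss was lowest on day 1. Ctss was highest on day 3 in both, but its interval there overlapped that of sham. The endothelial gene Cldn5 stood at 173 to 341 CPM in the deeper and at 1804 to 3295 CPM in the shallower cluster, and its part in the levels was not tested. In the deeper cluster alone the summed level on day 3 was 2.23 times sham. Ctsz stood at 1910, 3084, 3253 and 2291 CPM in the deeper and at 840, 2760, 2892 and 1132 CPM in the shallower. On days 1 and 3 Ctsz was thus further above sham in the shallower cluster.

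In border macrophage-like cells Ctsd was above sham in every tMCAO library, and few other members passed 2-fold. Ctsd stood at 684 CPM in sham, 3675 on day 1, 2079.5 on day 3 and 2044 on day 7, at 5.37 (4.68 to 6.19), 3.04 (2.60 to 3.57) and 2.99 (2.58 to 3.47) times sham. Ctsl stood at 454, 1284, 499 and 332 CPM and was 2.83 (2.37 to 3.39) times sham on day 1. Ctsc, highest of all classes here, stood at 1605, 942, 1356 and 654 CPM and was 0.408 (0.355 to 0.468) times sham on day 7. Ctsd was thus the only member above 2-fold in all 3 tMCAO libraries of this class, Ctsl passed on day 1 only and Ctsc was lower by 2-fold on day 7 only. The Ctsc call was lost in 2 of 11 other settings, and Ctsc came to 0.616 times sham with each cell called on its own. Day 1 had 2 members of the 8 that reached 50 CPM at 2-fold or more, against 8.74% of all genes, and days 3 and 7 had 1 each, against 7.31% and 10.5%. Lower by 2-fold were 0, 0 and 1 members, against 14.3%, 8.12% and 10.3%.

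Of the remaining members, 5 lay within 2-fold of sham in this class. Ctsb stood at 2437, 4153, 2311 and 2260.1 CPM, with its high value on day 1. Ctss stood at 1806, 2318, 2178 and 2556 CPM, so that every tMCAO library was above sham. Ctsz stood at 1097, 1278, 985 and 948 CPM, Ctsh at 864, 716, 666 and 647 CPM, and Ctsa at 558, 638, 499 and 394 CPM. Ctsh was highest in sham, and Ctsz and Ctsa were highest on day 1 and lowest on day 7. Ctsk, with 0, 8, 0 and 3 UMIs, was too low for a ratio to sham. The sum was 1.58 (1.52 to 1.64), 1.11 (1.06 to 1.17) and 1.04 (0.99 to 1.08) times sham.

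Genes of other myeloid cells moved within this class. The summed level of the 7 border macrophage markers was 7601, 8228, 4179 and 2717 CPM, and that of the 5 monocyte markers, which include Ccr2, Ly6c2 and Plac8, was 1973, 682, 1889 and 2929 CPM. The 6 neutrophil markers summed to 28.4, 81.0, 5939.5 and 149.8 CPM, with S100a8 at 4105 CPM on day 3, and their part in the cathepsin levels was not tested. The neutrophil markers thus summed above the border macrophage markers on day 3, and the monocyte markers did so on day 7. The 7 microglia markers summed to 274, 314, 350 and 493 CPM, with Tmem119 and Sall1 at 0 UMIs in sham, the other 5 at 7 to 24 UMIs there, and Sall1 again at 0 on day 3. Cells with a UMI of Ccr2, Ly6c2 or Plac8 made up 16.9, 23.9, 39.1 and 43.75% of the class. Without them, in a division made after the values were seen, Ctsd stood at 941, 3976, 3914 and 4101 CPM and Ctsb at 3071, 4223, 3956 and 4186 CPM. Among the cells with such a UMI, 11 in sham, 33 on day 1, 25 on day 3 and 42 on day 7, Ctsd stood at 22.6, 2782, 282 and 232 CPM and Ctsb at 801, 3946, 699 and 563 CPM. The fall of the summed level from day 1 to days 3 and 7 was not seen in the cells without such a UMI, whose sum was 11120, 15429, 16001 and 15979 CPM. In the cells with one it was 5338, 13781, 5259 and 4433 CPM. A cell without a captured UMI may still express these genes. Of the monocyte markers not used, Chil3 stood at 104, 468, 289 and 1130 CPM and Ms4a4c at 293, 69.1, 156 and 125 CPM. The part of the cell mix in the summed level was not tested. Without the cells with such a UMI, Ctsl on day 1 came to 1.98 times sham, Ctss on day 7 to 2.09 times and Ctsc on day 1 to 0.49 times.

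**Figure D4:**
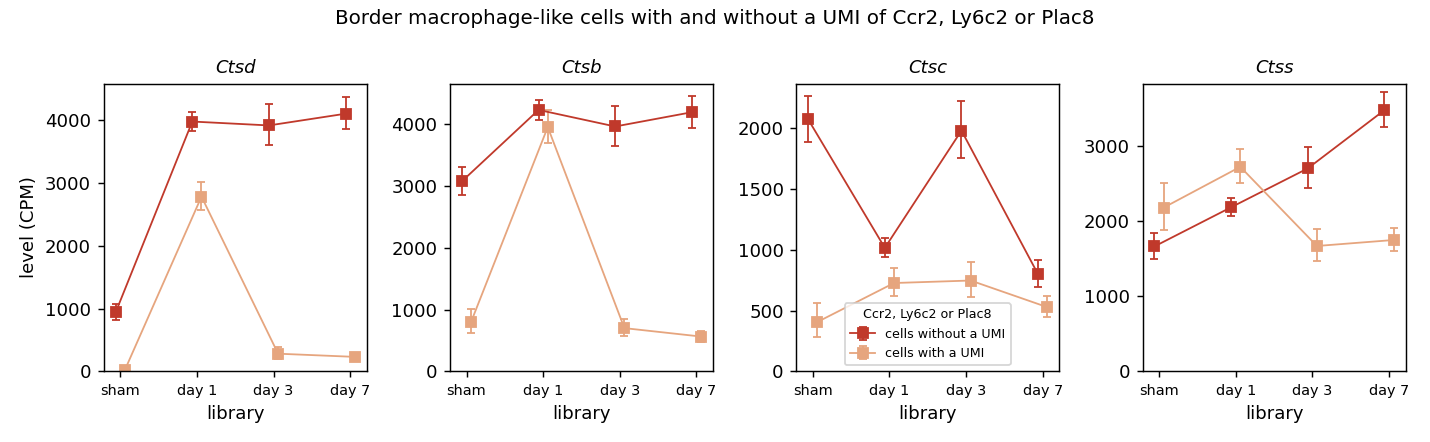
Levels of Ctsd, Ctsb, Ctsc and Ctss in border macrophage-like cells with and without a UMI of the monocyte genes Ccr2, Ly6c2 or Plac8, by library, in CPM, with exact 95% Poisson intervals for counting error. Ctsd stays between 3914 and 4101 CPM on days 1 to 7 in the cells without such a UMI and is at 282 and 232 CPM on days 3 and 7 in those with one.

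Within border macrophage-like cells a few cells carried much of the Ctsd. The richest 10% of cells (7, 14, 7 and 10 cells) held 35.9, 45.6, 64.7 and 80.9% of the Ctsd UMIs in sham and on days 1, 3 and 7. The median thinned cell held 9, 13, 10 and 6 cathepsin UMIs. On day 7 the median cell thus held fewer than in sham although the summed level was close to sham. With every cell weighing the same, Ctsd was 3.29 times sham on day 1 and 1.69 times on day 7, and with each cell called on its own from the markers it was 1.65 times on day 7.

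Set side by side, the macrophage classes went in opposite directions, beyond counting error in each, for 8 of 24 pairs of member and day, that is for 3, 2 and 3 of the 8 members past 50 CPM on days 1, 3 and 7. By the same rule 2.87%, 2.52% and 2.08% of all genes did so on these days, a share over genes of all levels, while the rule is met more readily at high counts, which most members have. On day 1 Ctsc was 2.13 times sham in microglia-like and 0.587 (0.524 to 0.657) times in border macrophage-like cells, and Ctss was 0.573 and 1.28 (1.17 to 1.41) times. Ctsl on day 7 was 1.42 times sham in microglia-like and 0.731 (0.583 to 0.918) times in border macrophage-like cells, but 1.73 times in the latter with up to 6000 genes per cell and each cell called on its own. Without cells with a UMI of Ccr2, Ly6c2 or Plac8, the border macrophage-like intervals overlapped those of sham for every such pair of days 3 and 7. They stayed apart for those of day 1, and Ctsz on day 7 was then above sham, at 1.17 times. Ctsd was above sham in both classes in every tMCAO library. All of these ratios share the sham library, and the difference between classes was not tested.

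Ctsk was the only member whose highest level lay outside the macrophage classes. Ctsk was highest in fibroblast-like cells, at 144, 132, 118 and 60.8 CPM in sham and on days 1, 3 and 7, followed by oligodendrocyte-like cells at 80.4, 48.4, 66.3 and 55.7 CPM. The intervals of these classes overlapped on day 7 only. Of the fibroblast-like clusters, the one led by Dcn, which encodes the collagen-binding proteoglycan decorin, held 222, 183, 149 and 93.5 CPM of Ctsk, and the one led by Prg4 held 74.0, 88.2, 82.5 and 39.8 CPM. Ctsl followed the same division, at 1506, 1374, 1134 and 915 CPM in the Dcn-led cluster and 487, 461, 637 and 458 CPM in the Prg4-led cluster. The intervals of these clusters were apart for Ctsl in every library, but for Ctsk they overlapped on day 3, with 23 against 11 UMIs, and on day 7, with 9 against 6 UMIs. Both clusters were small, with 31, 133, 50 and 30 cells in the Dcn-led and 38, 156, 26 and 38 in the Prg4-led one. In the class as a whole both genes were lowest on day 7. Ctsk on day 7 was 0.423 (0.219 to 0.775) times sham, on 15 UMIs against 44. In the Dcn-led cluster Dcn itself stood at 10177, 3558, 3653 and 4708 CPM and the endothelial gene Cldn5 at 27.8, 222, 525 and 582 CPM, and their part in the Ctsk level was not tested. In oligodendrocyte-like cells Ctsk was below sham on all days, at 0.602 (0.532 to 0.682), 0.825 (0.716 to 0.949) and 0.693 (0.605 to 0.793) times.

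Endothelial-like cells, the most frequent class, held most of the Ctsh UMIs, 84.3, 58.5, 68.1 and 75.4% of each library. Not counting unnamed cells, they were 3807 of 7562 kept cells in sham. They were 5407 of 13376, 4584 of 9378 and 6948 of 14044 on days 1, 3 and 7. Both macrophage classes had a higher Ctsh level in every library. In endothelial-like cells it was 585 CPM in sham and 430, 371 and 372 CPM on days 1, 3 and 7, at 0.734 (0.711 to 0.759), 0.634 (0.613 to 0.656) and 0.635 (0.615 to 0.655) times sham. Ctsa went the other way, at 61.7, 113, 139 and 74.0 CPM and 1.83 (1.69 to 1.99), 2.25 (2.08 to 2.44) and 1.20 (1.10 to 1.30) times sham. Ctsh was thus lower and Ctsa higher than sham on every day, beyond counting error, while the summed cathepsin level was 0.998, 1.02 and 0.813 times sham. Free RNA from macrophages could reach other droplets, and C1qa, C1qb and C1qc, which encode the complement component C1q of macrophages, served as its measure. At the ratio of Ctss to C1q UMIs in microglia-like cells, the C1q in endothelial-like cells stood for 86.4 to 130.1% of their Ctss, and the part of free RNA in that level was not tested. For Ctsd it stood for 0.579 to 7.74% of the endothelial level. Ctss in neutrophil-like cells on day 1, at 731 CPM, was above that part, which was 8.77% of the level.

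The inhibitors of the cysteine cathepsins moved as well. Cst3, the gene of the secreted inhibitor cystatin C and abundant in resting microglia, stood at 68478 CPM in sham microglia-like cells and at 21362, 33530 and 29151 CPM on days 1, 3 and 7, that is 0.312, 0.490 and 0.426 times sham. For each UMI of Cst3 these cells held 0.156 (0.152 to 0.161) UMIs of the 7 cysteine cathepsin genes in sham. The number was 0.660 on day 1, 0.535 on day 3 and 0.435 on day 7, with intervals of 0.651 to 0.669, 0.527 to 0.543 and 0.426 to 0.443. In microglia-like cells the inhibitor RNA thus outnumbered that of these enzymes in every library. In border macrophage-like cells the number was 0.776, 1.98, 0.774 and 0.698 in the same order of libraries, with an interval of 1.91 to 2.05 on day 1, so there the enzymes outnumbered it on day 1 only. Cst7, the gene of the lysosomal inhibitor cystatin F, had 2 UMIs in sham and 129, 140 and 152 UMIs afterwards, at 13 (3.52 to 108), 24.9 (6.77 to 208) and 33.0 (8.97 to 275) times sham. Of the 8 cystatin genes 3 reached 50 CPM, and Cst7 was the one that was highest on day 7, at 130.1 CPM. Cstb, the cytosolic cystatin B, stood at 111, 444, 169 and 165 CPM.

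Other lysosomal genes were followed as lists in microglia-like cells. Of 30 lysosomal hydrolase genes, 21, 21 and 19 reached 50 CPM in microglia-like cells on days 1, 3 and 7, and 3, 5 and 0 were higher by 2-fold, against 12.2%, 4.16% and 4.44% of all genes, with 1, 0 and 0 lower, against 14.4%, 4% and 2.31%. Their median log2 ratio, with 10 CPM added as above, was 0.11, 0.36 and 0.10. Gusb, the glucuronidase gene, stood at 118, 301, 328 and 183 CPM. Of 14 genes of the lysosomal membrane and its transport, 9 reached that level and 1 was higher by 2-fold on each day, in each case Cd63, a tetraspanin of late endosomes, at 280.3, 1273.5, 1064 and 777 CPM. The median of that list was 0.15, 0.65 and 0.30. Of 16 genes of the proton pump (V-ATPase), 14, 12 and 13 reached the level, 1, 0 and 1 were higher by 2-fold and the median was 0.49, 0.36 and 0.14. Of 6 enzyme sorting genes, 4, 3 and 4 reached it, none was past 2-fold in either direction and the median was 0.07, 0.16 and 0.12. Of the 4 MiT/TFE factor genes only Tfe3 reached it and was lower by 2-fold on day 1, at 69.1, 31.8, 56.9 and 84.8 CPM, while its interval on day 3, 0.548 to 1.26 times sham, held 1. The medians of the hydrolase, V-ATPase and sorting lists thus lay between those of the cathepsins and of all genes on each day, and that of the membrane list was above the cathepsins on day 7.

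**Figure D5:**
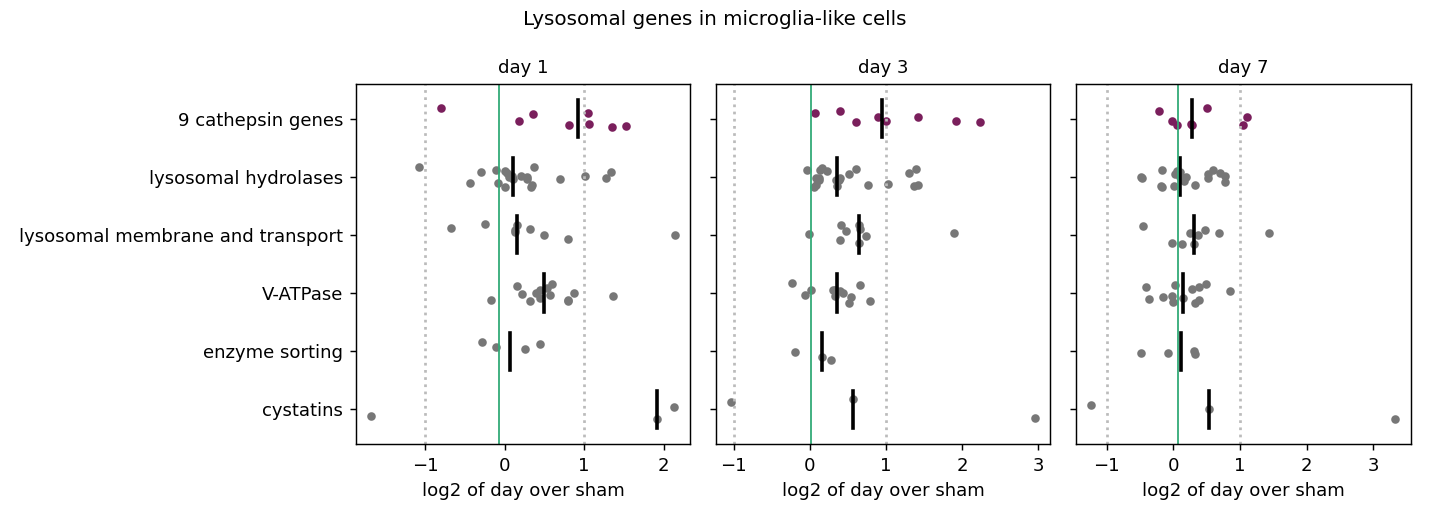
Log2 ratio to sham, with 10 CPM added to both levels, of each gene of the cathepsin, lysosomal and cystatin lists that reached 50 CPM in microglia-like cells on days 1, 3 and 7, with a point per gene. The black bar is the median of a list, the green line the median of all genes and the dotted lines mark 2-fold. The cathepsin medians are 0.92, 0.95 and 0.27, and most hydrolase, membrane and V-ATPase genes lie within 2-fold.

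Of 14 other cathepsin genes, 9 (Cts3, Cts6, Cts7, Cts8, Ctsj, Ctsm, Ctsq, Ctsr and Ctsll3) had 0 UMIs in every class reported. Ctsf stood at 144, 117, 190 and 155 CPM in microglia-like cells and Ctso at 43.4, 35.4, 66.8 and 55.7 CPM, all within 2-fold of sham. Ctsw, a cathepsin of cytotoxic lymphocytes, stood at 799 CPM on day 3 and 587 CPM on day 7 in T or NK-like cells. Of the 5 granule protease genes that cathepsin C activates, 3 reached 50 CPM in microglia-like cells on day 3 and none in sham, on day 1 or on day 7. These were Elane at 266 CPM, Prtn3 at 205 CPM and Ctsg at 56.9 CPM. All of their UMIs on day 3 came from 1 of the 427 cells, and without it Ctsd stood at 15095 CPM and the sum at 34256 CPM.

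Across the 51 sums of class and library, genes were ranked by the Pearson correlation of their levels with each member among 10337 genes, as a description over sums that share libraries and base levels of each class. The genes like Ctsd included Ctsz (0.898) and Man2b1 (0.884). Ctsb was most like Hexa (0.943), Lgmn (0.913) and Ctsz (0.907), and Ctsz was most like Hexa (0.918) and Ctsa (0.916). Hexa and Man2b1 encode lysosomal hydrolases and Lgmn the lysosomal protease legumain. Ctsa was most like Ctsz (0.916), Ctsb (0.902) and Hexa (0.897), and Ctsl was most like Naglu (0.877), Ctsz (0.84) and Lamp2 (0.804). Ctss was most like Cd86 (0.97), Tnfrsf13b (0.968) and Nckap1l (0.967), and Ctsc was most like Stab1 (0.876), Ms4a6d (0.875) and Ccl12 (0.869). None of these 6 genes is on the lysosomal lists. Ctsh was most like Rnase4 (0.864), Hfe (0.845) and Slc7a7 (0.813). Ctsk was most like Abca8a (0.85), B3gnt9 (0.843) and Adamts2 (0.799), the last of which encodes an enzyme that trims procollagen.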

How the data were processed

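The deposited matrices hold counts, that is UMIs per gene and cell, which the authors made with Cell Ranger from 10x Genomics 3′ libraries and left unnormalized. The submitters' processing notes name Cell Ranger 3.0.1 and GRCh38, the matrix headers name 4.0.0, and the 31053 features are mouse Ensembl genes; positions here come from a GRCm38 annotation matched by gene identifier. The cathepsin genes, the lists and the tests were chosen with earlier results of these data known.

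Limits of 200 and 3000 genes per cell and of 10% mitochondrial UMIs left 44360 cells, fewer than the study states for the same limits. They were log-normalized, integrated by canonical correlation over 30 dimensions on 1991 of 2000 variable genes (9 cathepsin genes, 7 of them members, were removed) and clustered at resolution 1 with Seurat 5.3.0 in R 4.3.3. Clusters were named from marker lists. Doublets were kept; the automatic cut of Scrublet (scanpy 1.11.5) marked 0.0142% to 4.61% of cells and had not worked in 3 libraries, so leaving out the 5% of cells with the highest scores was an alternative. UMIs were summed per class and library and divided by all UMIs of the sum (CPM). Total UMIs per library were 90607320 in sham and 104023002, 69392755 and 90072740 on days 1, 3 and 7. Ratios at least 2-fold, with 50 CPM in at least 1 of both libraries, were counted, and intervals (Poisson for levels, conditional binomial for ratios, Clopper-Pearson for shares, scipy 1.17.1) were exact. The genes named are the 9 members, the listed lysosomal genes past the threshold or with the ratio furthest from 1 in their list, and the 3 genes most like each member in pattern, of which 1 gene is not reported here. The scripts were tested on simulated data. Alternatives covered integration, cell limits, class calls, doublets, weighting, scaling, thinning and the expression limit.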

Additional observations from a re-analysis of the deposited data

Results flagged for a closer look

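The ratio to sham went one way in microglia-like cells and the other way in border macrophage-like cells, beyond counting error in each, for 8 of the 24 pairs of member and day that could be compared, against 2.49% of 7713 such pairs over all genes, and the difference between the classes was not tested. Ctsc, the dipeptidyl peptidase, was 2.13 against 0.587 times sham on day 1 and 1.54 against 0.845 times on day 3, with the microglia-like value first. Ctsh was 1.28 against 0.828 times on day 1 and 1.32 against 0.771 times on day 3. Ctss was the only one of these lower in microglia-like cells, at 0.573 against 1.28 times on day 1. On day 7 Ctsa was 1.20 against 0.707 times, Ctsl 1.42 against 0.731 times and Ctsz 1.22 against 0.864 times. In border macrophage-like cells the direction turned for Ctsl on day 7 with each cell called on its own (1.03, and 1.73 with up to 6000 genes per cell as well). For Ctsz on day 7 it turned with up to 6000 genes and each cell called on its own (1.04). For Ctsh on day 3 it turned as a mean over cells (1.01). Each ratio rests on 1 library per group, and the border macrophage-like class held 65 cells in sham and 64 on day 3. The share of its cells with a UMI of Ccr2, Ly6c2 or Plac8 moved from 16.9% in sham to 43.75% on day 7. Without those cells the border macrophage-like ratios on day 7 were 0.932 for Ctsa, 0.952 for Ctsl and 1.17 for Ctsz, those on day 3 were 0.956 for Ctsc and 0.926 for Ctsh, and those on day 1 were 0.490 for Ctsc, 0.775 for Ctsh and 1.31 for Ctss. The counting intervals of the levels then overlapped those of sham for 5 of the 8 pairs, all 3 of day 7 and both of day 3, and stayed apart for the 3 pairs of day 1.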

How the results depend on the processing

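The summed cathepsin level of microglia-like cells was above sham on all 3 days under every setting tried. For day 1 (1.47 times sham) it was 1.40 without integration, 1.37 as a mean of CPM over cells, 1.64 with mitochondrial, ribosomal protein and cathepsin UMIs left out of the denominator and 1.78 with scaling by the median of ratios. For day 3 (2.36) these were 2.30, 2.20, 2.48 and 2.49, and 2.23 in the deeper cluster alone. For day 7 (1.40) the mean over cells gave 1.28, the denominator 1.46 and a limit of 6000 genes with each cell called on its own 1.52. The limit of 6000 genes was tried only together with calling each cell on its own, also where it is named alone below. The mean over cells left 2 in place of 4 genes at 2-fold on day 1 and 0 in place of 2 on day 7, where 13.3% and 7.93% of all genes were past it. For border macrophage-like cells on day 1 (1.58) the values were 1.68 without integration, 1.46 with each cell called on its own, 1.43 with 6000 genes, 1.47 without the cells of the highest Scrublet scores, 1.43 as a mean over cells, 1.68 with the other denominator, 1.74 with the median of ratios and 1.39 without cells with a UMI of Ccr2, Ly6c2 or Plac8. For day 3 (1.11) each cell on its own gave 1.33, 6000 genes 1.49, Scrublet 1.03, the mean 1.24 and the removal of cells with monocyte genes 1.44. For day 7 (1.04) no integration gave 0.978, each cell on its own 0.973, 6000 genes 1.16, Scrublet 0.981, the mean 0.895, the denominator 1.12, the median of ratios 1.11 and the removal of cells with monocyte genes 1.44. The cause of these shifts was not tested. Further calls of single genes were lost. In microglia-like cells these were Ctsd on day 1 without integration (1.94) and at a mitochondrial limit of 5% (1.98). With the mean over cells they were Ctsc on day 1 (1.92) and Ctsb on day 7 (1.74). In border macrophage-like cells the call of Ctsc on day 7 was lost in 2 settings, with the higher value (0.616) when cells were called one by one. In microglia-like cells the median of ratios gained a call for Ctsz on day 1 (2.11). The limit of 6000 genes with each cell called on its own gained Ctsz on day 3 (2.17) and Ctss on day 1 (0.42, lower). Under that setting Ctsb on day 3 in border macrophage-like cells was 1.46 in place of 0.948. The median of ratios moved all log2 ratios up by 0.27 in microglia-like and 0.14 in border macrophage-like cells on day 1. Of the members' ratios 417 moved by less than their interval and 111 by more. The settings on Scrublet scores, the deeper cluster and the monocyte genes were added after seeing the data. No paired analysis was possible because each group is 1 library, and for the same reason no replicate could be left out. The intervals hold counting error only, with as few as 64 cells behind a border macrophage-like value.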
